A study of Mus musculus with 28 samples.

Results

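The 8 genes described here are used as markers of mural cells, the pericytes and vascular smooth muscle cells that wrap blood vessels: Pdgfrb, Rgs5, Abcc9, Notch3, Acta2, Tagln, Myh11 and Des. They were chosen by name, and they are 8 of the 41605 genes in the count table and 8 of the 17700 genes that passed the filter on low counts. Poly-A RNA was measured in bulk peripheral nerve of C57BL/6J mice, with no genetic change or treatment in any group, at 7 stages of development with 4 libraries per stage. E13 and E17 stand for embryonic days, taken at E13.5 and E17.5, and P1, P5, P14, P24 and P60 are postnatal days. Each E13 library holds nerves distal to the dorsal root ganglia (DRG) from 2 embryos, taken without stripping and not only from the sciatic nerve, although the label names the sciatic nerve. Each E17 library holds sciatic nerves of 2 embryos, and each later library those of 1 mouse. From E17 on the epineurium and perineurium, the outer sheaths of the nerve, were peeled off as far as possible. Each stage drew on male and female animals, the sex of single libraries is not in the labels, and the mice were not perfused. Age, tissue and dissection all differ between E13 and the later stages, and in any comparison with E13 these cannot be told apart.

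Mural cells sit against the outside of the endothelial tube. Pericytes line capillaries within the endoneurium, the inner space of the nerve, while smooth muscle cells ring arterioles and larger vessels and contract to set blood flow. Endothelial cells release PDGF-B, and mural cells carry its receptor, which is needed for them to be recruited to growing vessels. Jagged ligands on endothelial cells act on the Notch3 receptor of mural cells. The contractile genes of smooth muscle are driven by serum response factor together with myocardin or its relatives, which act through a DNA element named the CArG box. None of the 8 genes belongs to mural cells alone: fibroblasts carry Pdgfrb, and embryonic muscle cells make Acta2, Tagln and Des.

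Between P1 and P60, the comparison of newborn with young adult nerve, 7 of the 8 genes rose by at least 2-fold and Abcc9 did not, where 20.3% of all genes rose and 15.2% fell. The contractile genes rose most, with log2 fold changes of 5.47 for Tagln, 4.54 for Myh11 and 4.15 for Acta2, and the receptors and pericyte genes rose less, with 1.60 for Rgs5, 1.37 for Notch3 and 1.06 for Pdgfrb. Des rose by 2.58. Acta2, Tagln and Des had been higher in E13 nerve and fell from E13 to E17, as did Notch3, while Myh11 was low at both stages. All values are counts per 1000000 reads (CPM) after TMM scaling, a correction for differences in library composition, and library totals ranged from 13899895 to 37662780 reads. In bulk RNA, fewer mural cells and less RNA per mural cell cannot be told apart.

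**Figure D1:**
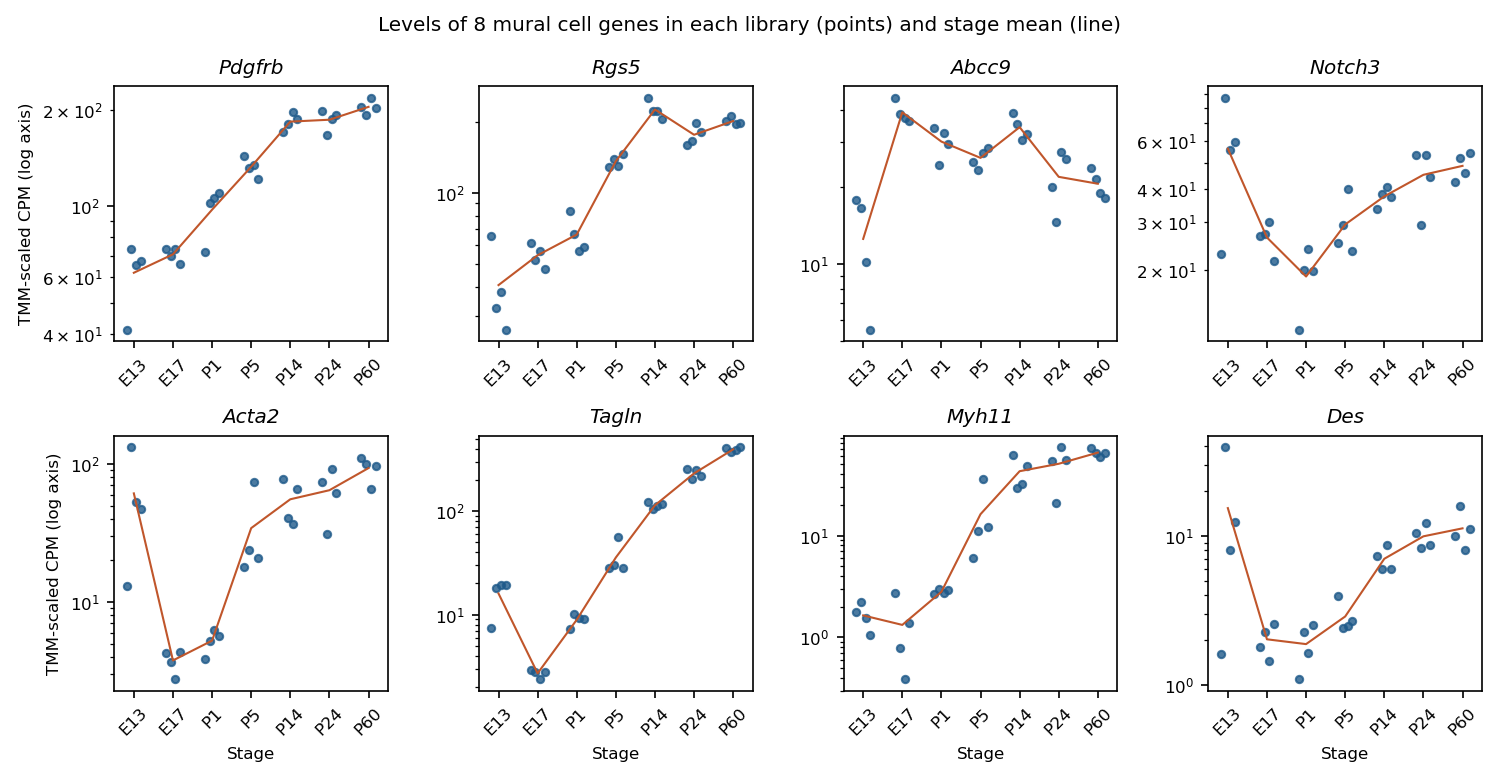
TMM-scaled CPM (vertical log axis, a range of its own in each panel) of the 8 genes in each library (points, replicates 1 to 4 from left to right within a stage) and the mean of the 4 libraries (line) at the 7 stages. Acta2 and Tagln are lowest at E17, while Pdgfrb is lowest at E13 and highest at P60.

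Pdgfrb encodes the receptor for PDGF-B (ENSMUSG00000024620, chromosome 18: 61045150-61085061, plus strand, GRCm38). In replicates 1 to 4, its level was 41.3, 73.7, 65.5 and 67.7 CPM at E13, 73.5, 70.1, 73.4 and 66.3 at E17 and 72.2, 102, 106 and 110 at P1. It was 143, 132, 134 and 122 CPM at P5, 170, 181, 196 and 187 at P14, 198, 167, 187 and 192 at P24 and 204, 192, 218 and 202 at P60. The climb was gradual: the P1, P5 and P14 libraries did not overlap, and the P14 and P24 libraries did. No step between neighbouring stages reached 2-fold, although 3 of them had an adjusted p under 0.05, with log2 fold changes of 0.46 ± 0.13 (SE) from E17 to P1 (adjusted p = 0.0084), 0.44 ± 0.13 from P1 to P5 (0.018) and 0.47 ± 0.13 from P5 to P14 (0.0078). Over the whole span from P1 to P60 the gene rose by 1.06 ± 0.13 on the log2 scale (adjusted p = 9.9e-08), which is close to the 2-fold minimum. Without P1 replicate 1, the lowest of the P1 libraries, the value was 0.97, and it was 0.87 when libraries were scaled by their totals alone.

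Rgs5 encodes a regulator of G protein signalling that is abundant in pericytes (ENSMUSG00000026678, chromosome 1: 169655501-169695813, plus strand). In replicates 1 to 4 Rgs5 measured 65.7, 32.4, 37.9 and 26.3 CPM at E13, 61.4, 51.7, 56.7 and 47.4 at E17 and 83.8, 67, 56.4 and 58.6 at P1. It then stood at 129, 139, 130 and 146 CPM at P5, 253, 221, 221 and 206 at P14, 159, 166, 198 and 181 at P24 and 201, 211, 195 and 198 at P60. Rgs5 was the only one of the 8 genes with its highest stage mean at P14, and every P14 library was above every P24 library. The rise from P1 to P5 was 1.03 ± 0.18 (adjusted p = 1e-04), and without P1 replicate 3, P1 replicate 4 or P5 replicate 4 it was 0.95, 0.97 and 1.0, just under the 2-fold minimum, and it was 0.83 with scaling by totals alone. From P5 to P14 the log2 difference was 0.73 ± 0.17 (0.0022), and from P14 to P24 it was -0.36 ± 0.17 (0.31), which did not pass the test. E13 replicate 1, in which log2 levels changed by -0.93 per 10 percentage points of gene GC content, held the highest Rgs5 (41.1% GC) and the lowest Pdgfrb (54.9% GC) level of that stage.

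Abcc9 encodes SUR2, the regulatory subunit of a potassium channel of mural cells that is gated by ATP (ENSMUSG00000030249, chromosome 6: 142587862-142702315, minus strand). Its level was 17.8, 16.6, 10.2 and 5.53 CPM at E13, 44.9, 38.8, 37.2 and 36.3 at E17 and 34.1, 24.5, 32.5 and 29.6 at P1. It was 25.2, 23.3, 27.2 and 28.5 CPM at P5, 39.1, 35.4, 30.6 and 32.4 at P14, 20, 14.6, 27.5 and 25.7 at P24 and 23.8, 21.6, 19 and 18.1 at P60. The gene was the only one of the 8 called higher at E17 than at E13, by 1.64 ± 0.23 (adjusted p = 7.1e-07), while Rgs5 differed by 0.42 ± 0.18 (0.042), under the 2-fold minimum, and by -0.09 (0.43) with a trend of counts with GC content removed. Abcc9 was also the only one whose highest stage was E17. Against P1, the P60 level differed by -0.55 ± 0.23 (0.037), with no overlap between the libraries but under the 2-fold minimum. That p was 0.095 with the GC trend removed, 0.11, 0.079 and 0.059 without P1 replicate 1, 3 or 4, and 0.053, 0.083 and 0.094 without P60 replicate 2, 3 or 4. Kcnj8, the pore subunit of the same channel, had 11.8 ± 2.92 CPM (SD, n = 4) at E17, 7.64 ± 1.48 at P1 and 8.96 ± 1.14 at P60, and its log2 difference from P1 to P60 was 0.23 ± 0.19 (0.32).

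Notch3 encodes the Notch receptor of smooth muscle cells and pericytes (ENSMUSG00000038146, chromosome 17: 32120820-32166852, minus strand). Its level was 22.9, 87.1, 55.7 and 59.5 CPM at E13, 26.7, 27.1, 30 and 21.6 at E17 and 12, 19.9, 23.8 and 19.8 at P1. It was 25.1, 29.2, 40 and 23.5 CPM at P5, 33.6, 38.3, 40.5 and 37.4 at P14, 53.1, 29.4, 53.5 and 44.1 at P24 and 42.2, 52.1, 45.7 and 54.4 at P60. The gene fell by 1.09 on the log2 scale (SE 0.26) from E13 to E17 (adjusted p = 0.00074). E13 replicate 1 lay inside the E17 range while the other E13 libraries lay above it, and the change was under the 2-fold minimum without E13 replicate 2 (-0.83) and with the GC trend removed (-0.99). No later step passed both criteria, but the P60 libraries all exceeded the P1 libraries, and the rise over that span was 1.37 ± 0.26 (6.8e-05).

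Acta2 encodes smooth muscle alpha-actin (ENSMUSG00000035783, chromosome 19: 34241090-34255590, minus strand). Its level was 13.1, 132, 52.8 and 47.3 CPM at E13, 4.29, 3.7, 2.75 and 4.34 at E17 and 3.83, 5.25, 6.23 and 5.68 at P1. It was 18, 23.7, 74.6 and 21 CPM at P5, 78.3, 40.7, 37 and 66.2 at P14, 74.3, 30.9, 91.5 and 61.8 at P24 and 111, 99.4, 66.4 and 97.4 at P60. The E17 and P1 libraries sat apart from all others, below the lowest E13 library and below every library from P5 on. Acta2 fell by 4.04 (SE 0.54) on the log2 scale from E13 to E17 (adjusted p = 3.3e-07) and rose by 2.70 ± 0.50 from P1 to P5 (0.00027). P5 replicate 3 was far above the other P5 libraries, and without it the rise from P1 to P5 was 1.99 ± 0.45 (0.0028) while the step from P5 to P14 went from 0.70 ± 0.46 (0.28) to a called 1.41 ± 0.45 (0.021). From P14 on the libraries of neighbouring stages overlapped.

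Tagln encodes transgelin, an actin-binding protein of smooth muscle (ENSMUSG00000032085, chromosome 9: 45929619-45936058, minus strand). Its level was 7.35, 17.9, 19.3 and 19.5 CPM at E13, 2.91, 2.8, 2.37 and 2.76 at E17 and 7.22, 10.1, 9.22 and 9.15 at P1. It was 28.1, 30, 56.1 and 28.5 CPM at P5, 122, 104, 112 and 118 at P14, 253, 205, 252 and 217 at P24 and 412, 371, 387 and 413 at P60. Libraries of neighbouring stages never overlapped, and from E17 on each stage lay above the one before. Tagln fell by 2.56 (SE 0.25) on the log2 scale from E13 to E17 (adjusted p = 1e-09), then rose by 1.72 ± 0.25 to P1 (4.4e-06), 2.00 ± 0.22 to P5 (1.9e-07), 1.68 ± 0.21 to P14 (8.4e-07) and 1.02 ± 0.21 to P24 (0.0027). The last of these values was 0.98, under the 2-fold minimum, without P14 replicate 2, P24 replicate 1 or P24 replicate 3. From P24 to P60 the difference was 0.77 ± 0.21 (0.011), under 2-fold. Pcsk7, on the opposite strand, overlaps Tagln and had 21471 reads over all libraries beside 58226 for Tagln. Whether the counting used strand is not given in the sources used here, so reads in the shared stretch are uncertain.

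Myh11 encodes the myosin heavy chain of smooth muscle, a marker of its mature contractile state (ENSMUSG00000018830, chromosome 16: 14194535-14291372, minus strand). Its level was 1.76, 2.22, 1.55 and 1.05 CPM at E13, 2.75, 0.792, 0.388 and 1.38 at E17 and 2.66, 2.96, 2.7 and 2.89 at P1. It was 6, 11.1, 35.7 and 12 CPM at P5, 62.2, 29.3, 31.7 and 47.9 at P14, 54, 20.7, 73.2 and 54.5 at P24 and 72.4, 64.3, 58.6 and 65.2 at P60. Unlike Acta2, Tagln and Des, the E13 level was low, and the difference from E13 to E17 was -0.38 ± 0.55 (adjusted p = 0.57). Myh11 rose by 2.53 ± 0.45 from P1 to P5 (0.00017) and by 1.40 ± 0.41 from P5 to P14 (0.01), although the latter had an adjusted p of 0.088 when only those 2 stages were fitted. Without P5 replicate 3 these 2 values were 1.80 ± 0.38 (0.0017) and 2.13 ± 0.38 (0.00014). Its exons share 0.4% of their 50-base stretches with Myh9 and Myh10, the non-muscle myosins.

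Des encodes desmin, an intermediate filament of smooth, skeletal and heart muscle that pericytes also make (ENSMUSG00000026208, chromosome 1: 75360329-75368579, plus strand). Its level was 1.62, 39.4, 8.12 and 12.5 CPM at E13, 1.81, 2.27, 1.44 and 2.58 at E17 and 1.09, 2.25, 1.64 and 2.54 at P1. It was 3.96, 2.41, 2.48 and 2.68 CPM at P5, 7.36, 6.05, 8.7 and 6.04 at P14, 10.5, 8.37, 12.2 and 8.77 at P24 and 10, 15.8, 8.08 and 11.2 at P60. E13 replicates 2, 3 and 4 were above all E17 libraries, and replicate 1 was within their range. Des fell by 2.94 (SE 0.53) on the log2 scale from E13 to E17 (adjusted p = 2.6e-05). E13 replicate 2 set much of the size: without it the change was -1.90 ± 0.41 (0.00027). From P5 to P14 all libraries were higher, but the difference of 1.29 ± 0.49 did not pass the threshold (adjusted p = 0.05). It passed in 8 of 10 processing alternatives, with adjusted p from 7.7e-06 to 0.047 (0.028 with the GC trend removed), and in 0 of 8 with 1 library left out. Over P1 to P60 the rise was 2.58 ± 0.52 (1e-04).

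Skeletal muscle markers varied widely among the E13 libraries, together with some of the 8 genes. The summed level of 12 such genes, among them Acta1, Actc1 and Mylpf, was 57.3, 1040, 124 and 113 CPM in E13 replicates 1 to 4, between 12.3 and 41.3 CPM in the E17 libraries and between 2 and 11.5 CPM in all later ones. E13 replicate 2 thus had the highest level of skeletal muscle genes and also the highest Acta2, Des, Notch3 and Pdgfrb, and E13 replicate 1 had the lowest of each. E13 replicate 1 is also the library whose log2 levels changed by -0.93 per 10 percentage points of GC content. Gene GC content was 49.6% for Acta2, 56.5% for Des, 59.6% for Notch3 and 54.9% for Pdgfrb, and the part of GC in these low values was not tested. Replicates 2 and 1 were also highest and lowest for the sums of other pericyte genes (527 and 244 CPM), other contractile genes (490 and 317), fibroblast genes (921 and 542) and signalling genes (579 and 355). The endothelial sum was highest in replicate 2 (283) but lowest in replicate 4 (227), as was the sum of contractile regulators (198 and 117). The perineurial sum was highest in replicate 4 (72.7) and lowest in replicate 1 (39.1). Tagln was not highest in replicate 2 either, with 17.9 CPM there and 19.3 and 19.5 CPM in replicates 3 and 4. Of the 11 skeletal muscle genes that passed the filter, 10 fell and 1 rose from E13 to E17, where 21.2% of all genes fell and 14.2% rose. Without E13 replicate 2, the log2 differences were -3.36 ± 0.48 for Acta2 (adjusted p = 1.3e-06), -2.53 ± 0.26 for Tagln (6.3e-09) and -1.90 ± 0.41 for Des (0.00027, from -2.94). The skeletal muscle sums of the other E13 libraries, 57.3 to 124 CPM, were still above those of the E17 libraries. The part of skeletal muscle in the fall of Acta2, Tagln and Des was not tested. After birth the skeletal muscle sum stayed at or under 11.5 CPM, while Acta2 reached 66.4 to 111 CPM at P60.

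The label of the tissue was checked with the Schwann cell genes Sox10 and S100b. Sox10 was at 34.1 to 170 CPM in the E13 libraries, 297 to 348 CPM in the E17 libraries and 332 to 502 CPM in the P60 libraries. S100b was at 8.58 to 16.8 CPM, 40.8 to 45.1 CPM and 932 to 1060 CPM in the same 3 stages, so both were detected in every one of these libraries. In 3 libraries read counts moved with the GC content of genes: the slope of log2 level on GC, per 10 percentage points, was -0.93 in E13 replicate 1, 0.72 in E13 replicate 4 and -0.42 in P1 replicate 1, and it lay between -0.16 and 0.20 in the other 25. With that trend removed, the E13 to E17 difference of Rgs5 (41.1% GC) went from 0.42 to -0.09 and that of Notch3 (59.6% GC) from -1.09 to -0.99, which is under the 2-fold minimum.

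Counts of called genes were read against all 17700 genes tested, with called meaning an adjusted p under 0.05 in edgeR's quasi-likelihood test and a change of at least 2-fold. From E13 to E17, 1 gene of the 8 was higher (Abcc9) and 4 were lower (Notch3, Acta2, Tagln and Des), where 35.5% of all genes were called, 14.2% higher and 21.2% lower. The libraries of the 2 stages did not overlap for 3 of the 8 genes and for 46.8% of all genes. Without the fold minimum, 6 of the 8 passed and 62.2% of all genes did. The sixth, Rgs5 (0.42, adjusted p = 0.042), did not pass with scaling by totals alone (0.16, 0.46), when only those 2 stages were fitted (0.42, 0.25), without E13 replicate 2 (0.30, 0.17) or without E17 replicate 1 (0.35, 0.13), and it was -0.09 (0.43) with the GC trend removed. The median log2 difference of the 8 genes was -0.74, against -0.08 over all genes.

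From E17 to P1 Tagln alone was called, where 11.7% of all genes were (6.31% higher, 5.41% lower), and the libraries did not overlap for 2 of the 8 genes and for 38.2% of all genes. Myh11, at 1.13 ± 0.52 (adjusted p = 0.11), was not called, but without E17 replicate 1 it was, at 1.79 (0.022). With no fold minimum, 2 of the 8 passed against 29.5% of all genes.

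The step from P1 to P5 had 4 of the 8 genes higher (Rgs5, Acta2, Tagln and Myh11) and none lower, at a time when 5.84% of all genes were called, 4.05% higher and 1.79% lower. Here 5 of the 8 genes had no overlap between libraries, against 30.4% of all genes, and 5 passed without a fold minimum, against 17.6%. The median log2 difference was 0.83 for the 8 genes and 0.00 for all genes.

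From P5 to P14 Tagln and Myh11 were called higher, where 12% of all genes were called (7.11% higher, 4.91% lower). No overlap was found for 5 of the 8 genes and 43.6% of all genes, and 4 passed without the fold minimum, against 29.6%. Tagln was also the 1 gene called from P14 to P24, where 2.65% of all genes were called (1.51% higher, 1.14% lower), with no overlap for 3 of the 8 genes and 16.5% of all genes and 1 gene passing without the fold minimum against 5.45%. From P24 to P60, 0 of the 8 genes were called by edgeR, limma-voom or DESeq2, where 5.96% of all genes were (2.55% higher, 3.41% lower), and 1 gene, Tagln, had an unadjusted p under 0.05. No overlap held for 1 of the 8 and 27.2% of all genes, and 1 passed without the fold minimum, against 16.1%.

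Over the span from P1 to P60, 7 of the 8 genes were higher and none lower, where 35.5% of all genes were called, 20.3% higher and 15.2% lower. The libraries did not overlap for 8 of the 8 genes and for 60.7% of all genes, and 8 passed without the fold minimum, against 61.1% of all genes, although Abcc9 (adjusted p = 0.037) did not pass with the GC trend removed (0.095). The median log2 difference was 2.09, against -0.02 over all genes. When the 7 stages were tested together, 8 of the 8 genes had changed, as had 70% of all genes, so a change at some stage was common. Stages of highest mean level were E13 for Notch3 and Des, E17 for Abcc9, P14 for Rgs5 and P60 for Pdgfrb, Acta2, Tagln and Myh11. Of all genes called, 35.2% had their highest level at E13, 15.5% at E17, 5.72% at P14 and 23.5% at P60. The E13 and P60 libraries overlapped for Des (1.62 to 39.4 against 8.08 to 15.8 CPM) and Notch3 (22.9 to 87.1 against 42.2 to 54.4). Both E13 peaks depend on E13 replicate 2, the highest E13 library for each. The other E13 libraries were at 1.62, 8.12 and 12.5 CPM for Des and 22.9, 55.7 and 59.5 for Notch3.

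**Figure D2:**
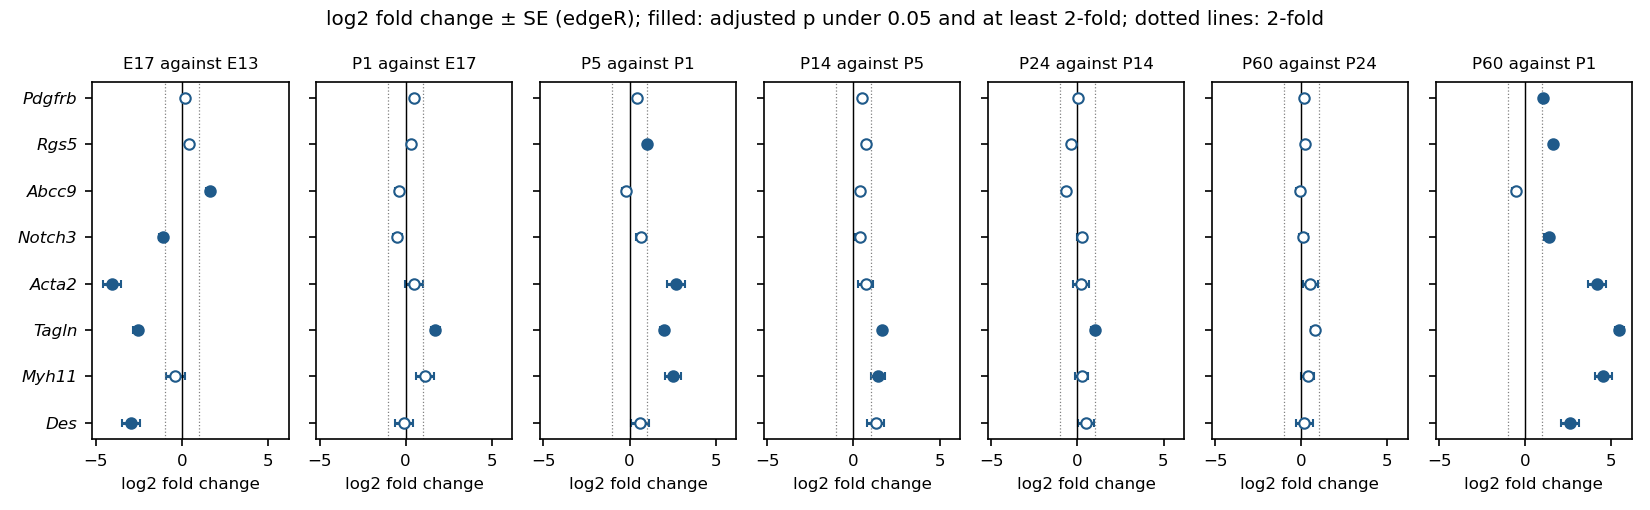
Log2 fold change (horizontal axis, bars ± SE, edgeR on all 28 libraries) of the 8 genes in the 7 comparisons. Filled points were called, open points were not, and dotted lines mark 2-fold. Changes from E13 to E17 lie on both sides of 0, while all called changes after E17 lie to the right, and none is called from P24 to P60.

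Divided by exon length, so that genes can be compared with each other, levels changed order along the timeline. At E17 Pdgfrb (12.9 ± 0.619 CPM per kb, SD, n = 4) and Rgs5 (11.9 ± 1.34) led, and their libraries overlapped. They were followed by Abcc9 (4.69 ± 0.463), Notch3 (3.26 ± 0.435), Acta2 (1.72 ± 0.335), Tagln (1.36 ± 0.12), Des (0.539 ± 0.134) and Myh11 (0.175 ± 0.136), and of these only Acta2 and Tagln overlapped as neighbours. By P60 Tagln led with 199 ± 10.3 CPM per kb, apart from all others. Rgs5 (44.2 ± 1.56), Acta2 (42.6 ± 8.71) and Pdgfrb (37.2 ± 1.9) came next, and neighbours among these 3 overlapped. Myh11 (8.57 ± 0.749), Notch3 (6.01 ± 0.699), Des (3.01 ± 0.876) and Abcc9 (2.46 ± 0.304) came last, with overlap between Des and Abcc9.

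**Figure D3:**
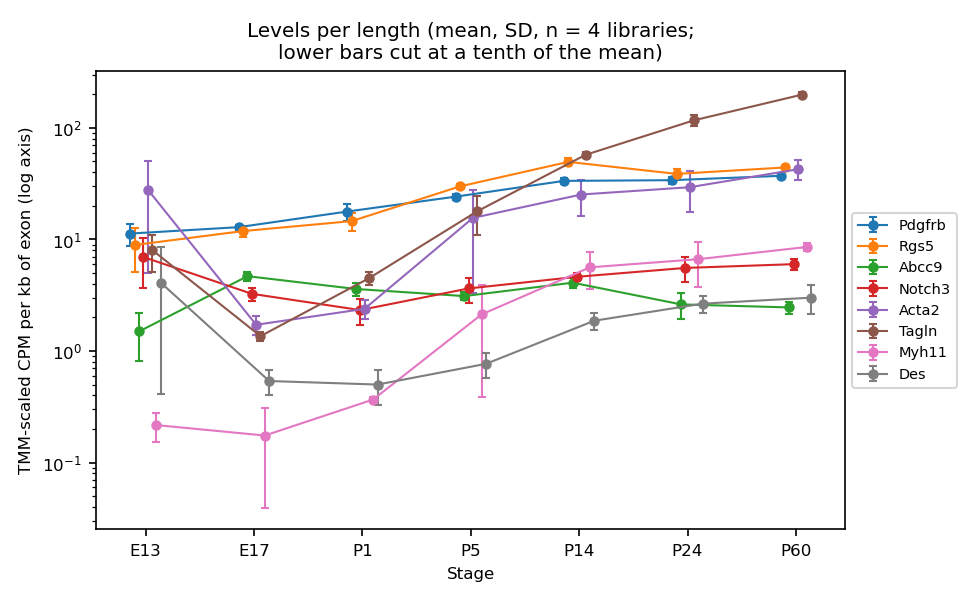
TMM-scaled CPM per kilobase of exon (vertical log axis) of the 8 genes by stage, as mean and SD of 4 libraries, with points shifted sideways for clarity. Tagln goes from 1.36 at E17 to 199 at P60, and Abcc9 from 4.69 to 2.46.

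The balance of contractile to pericyte expression was followed as the log2 ratio of Acta2 to Rgs5 (of CPM + 0.5). It was -3.69 ± 0.34 (SD, n = 4) at E17, -3.54 ± 0.53 at P1 and -2.23 ± 0.96 at P5. Later it was -2.08 ± 0.49 (P14), -1.54 ± 0.62 (P24) and -1.12 ± 0.30 (P60), and in E13 nerve 0.26 ± 1.82 with a range of -2.28 to 2.01. The ratio was higher at P60 than at P1 by 2.42, with no overlap (exact permutation test, two-sided, p = 0.029, adjusted p = 0.067 over 7 comparisons). The same p-values were reached by the differences of -3.95 from E13 to E17 and 1.32 from P1 to P5, and the latter was 0.84 without P5 replicate 3. With 4 libraries against 4, 0.029 is the smallest p that this test can give. The comparisons that reached it were too few for any of them to pass after adjustment over 7, so the adjusted p cannot decide here. The other 4 steps overlapped, with exact permutation p from 0.171 to 0.771.

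To set the 8 genes against an endothelial gene, each was divided by Pecam1, a gene of endothelial cells that itself rose from 48.7 to 116 CPM between P1 and P60. Relative to Pecam1, Tagln was higher at P60 than at P1 by 4.15 on the log2 scale, Myh11 by 3.06, Acta2 by 2.78 and Des by 1.06, while Abcc9 was lower (-1.78). These 5 had no overlap and an exact permutation p of 0.029 each (8 ratios tested, two-sided), but with a pseudocount of 2 CPM Des was at 0.54 and an exact permutation p of 0.057. Pdgfrb (-0.17, exact p = 0.200), Rgs5 (0.36, 0.143) and Notch3 (0.13, 0.629) overlapped, which does not show that they kept pace with Pecam1. With Cdh5, another endothelial gene, in place of Pecam1, the differences of Pdgfrb, Rgs5 and Notch3 were 0.49, 1.02 and 0.79, each with an exact permutation p of 0.029. The size of every such ratio depends on the endothelial gene chosen, since the log2 differences of 10 endothelial genes from P1 to P60 ran from 0.49 to 3.88, the latter for Cldn5, with a median of 1.84 and 1.25 for Pecam1. Cldn5 differed by more than Des, Rgs5, Notch3 and Pdgfrb did, and by less than Tagln, Myh11 and Acta2.

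**Figure D4:**
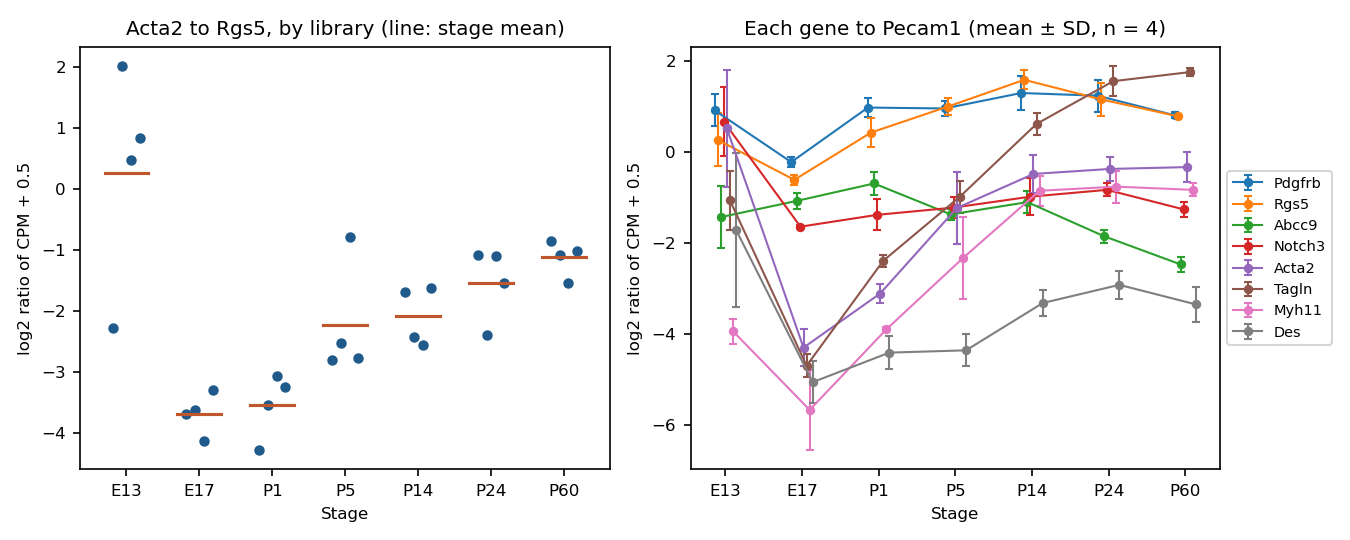
Left, log2 ratio of Acta2 to Rgs5 in each library (points) with the stage mean (line). Right, log2 ratio of each of the 8 genes to Pecam1 (mean ± SD, n = 4), both from CPM + 0.5. On the left the ratio climbs from -3.69 at E17 to -1.12 at P60, and on the right the contractile genes climb while Abcc9 ends at -2.47.

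The promoters of Acta2 and Rgs5 are shown because these 2 genes carry the comparison of contractile with pericyte expression. Each window holds the 250 bases before and 50 bases after the start in RefSeq (GRCm38.p6), at chr19:34255324-34255623 on the minus strand for Acta2 and chr1:169655251-169655550 on the plus strand for Rgs5. Windows were found for 5 of the 8 genes (Rgs5, Abcc9, Notch3, Acta2 and Des). Capitals mark TGGGAA, the core letters of the motif of RBPJ, the DNA-binding partner of Notch.
Acta2: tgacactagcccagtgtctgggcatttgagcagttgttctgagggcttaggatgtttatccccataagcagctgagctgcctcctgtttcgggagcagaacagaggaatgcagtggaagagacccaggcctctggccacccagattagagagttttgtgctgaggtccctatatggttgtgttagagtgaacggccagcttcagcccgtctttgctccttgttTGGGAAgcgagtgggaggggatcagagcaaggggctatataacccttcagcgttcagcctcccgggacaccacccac
Rgs5: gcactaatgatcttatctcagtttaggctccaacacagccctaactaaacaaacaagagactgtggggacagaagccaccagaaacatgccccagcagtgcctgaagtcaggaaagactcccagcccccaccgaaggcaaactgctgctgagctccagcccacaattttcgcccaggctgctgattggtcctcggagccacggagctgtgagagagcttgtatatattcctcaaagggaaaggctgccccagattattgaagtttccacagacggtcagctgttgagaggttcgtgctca
Both strands were searched. TGGGAA starts 27 bases before the Acta2 start (offset -27) and 221 bases before that of Abcc9 (offset -221), it is absent from the other 3 windows, and 25.6% of the 32851 RefSeq promoter windows hold it. The CArG box in its strict form, with no base off, was in 0 of the 5 windows and in 1.63% of all. With at most 1 base off the strict form, a search added after the data were seen, the Acta2 window held 2 matches, starting 84 and 34 bases before the start, and the one at 34 overlaps the TGGGAA. None of the other 4 windows held such a match, and 21.1% of all windows did. Windows of this length leave out elements that lie further away.

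Other genes used as pericyte markers did not move as 1 group. Of 8 further pericyte genes, 4 rose from P1 to P60 (Higd1b, Ndufa4l2, Vtn and Cox4i2), 1 fell (Mcam) and 3 were not called, with a median log2 difference of 1.12. Cox4i2, Higd1b and Ndufa4l2 were low at P1, with 6 to 13, 19 to 28 and 24 to 69 reads per library, so the size of their rise is uncertain. Vtn had 491 to 909 reads there. Over the same span 20.3% of all genes rose and 15.2% fell, and the counts of the lists that follow are to be read against these shares. Mcam, an adhesion molecule of mural and endothelial cells, fell by 3.02 (SE 0.16) on the log2 scale, from 720 ± 36.9 CPM at P1 to 88.8 ± 4.82 at P60. At E17 Mcam was at 240 CPM per kb of exon, where Pdgfrb was at 12.9, Rgs5 at 11.9 and Pecam1 at 13.3. Which cells of the nerve made the Mcam RNA was not tested, so its fall cannot be assigned to pericytes. Because of Mcam, the summed level of this list had its highest median at E17 (917 CPM) and its lowest at P60 (263 CPM), while the sum of the 8 genes went from 201 to 1040. Cspg4, which encodes the NG2 proteoglycan of pericytes, was at 69.9 ± 8.53 CPM at E17, 85 ± 21.4 at P1 and 83 ± 13 at P60, and its log2 difference from P1 to P60 was -0.04 ± 0.25 (adjusted p = 0.92).

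Among 11 further contractile genes, 6 rose from P1 to P60, 1 fell and 4 were not called (20.3% and 15.2% of all genes rose and fell), with a median log2 difference of 2.28. Myl9, a regulatory light chain of myosin, rose from 52.1 ± 10 to 253 ± 21.9 CPM (log2 fold change 2.28 ± 0.26, adjusted p = 2.6e-08). Smtn, which encodes the smooth muscle protein smoothelin, was at 558 ± 180 CPM at P1 and 628 ± 104 at P60 (0.17 ± 0.26, 0.59), having risen from E17 to P1 by 2.24 ± 0.27 (3.4e-07). Tpm1, a tropomyosin that many cell types make, went from 101 ± 3.93 to 178 ± 17.5 CPM, a log2 difference of 0.82 ± 0.09 that was under 2-fold. Actg2, the gamma-actin of enteric smooth muscle, was the 1 gene lower at P60. It went from 2.63 ± 0.69 to 0.354 ± 0.144 CPM and fell by 2.87 (SE 0.54) on the log2 scale. From E13 to E17, 5 of the 11 fell and 1, Smtn, rose, against 21.2% and 14.2% of all genes.

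Regulators of the contractile programme differed among themselves. Myocd, which encodes myocardin, had 21, 35, 34 and 11 reads in E13 replicates 1 to 4, 0, 3, 4 and 0 reads at E17 and 0, 1, 2 and 2 at P1. It had 5, 17, 11 and 4 reads at P5, 2, 7, 5 and 15 at P14, 5, 0, 4 and 6 at P24 and 5, 13, 12 and 5 at P60. The gene was called lower from E13 to E17 (adjusted p = 0.00021) and higher from P1 to P5 (0.017), as were Acta2 and Tagln, and it was not called from P5 to P14 or from P14 to P24, where Tagln was. No fold is given since the E17 and P1 libraries hold 0 to 4 Myocd reads. Srf, which encodes serum response factor, was between 21.6 and 27.3 CPM as a stage mean throughout (P1 to P60, -0.03 ± 0.22, 0.94). Of 7 regulators, Myocd, Mrtfb and Klf4 rose from P1 to P60, and Srf, Mrtfa, Mef2c and Foxc1 were not called, against 20.3% of all genes that rose. Mrtfb, a relative of myocardin, went from 34.5 ± 3.31 to 72.3 ± 6.78 CPM, and Klf4, a factor known to repress contractile genes, from 4.85 ± 1.15 to 15.4 ± 2.74.

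In a list of 14 signalling genes, which holds ligands and targets of the 2 receptors and other vascular signals such as the angiopoietins, 4 rose from P1 to P60 (Pdgfb, Pdgfd, Hey2 and Angpt1), 1 fell (Angpt2) and 9 were not called. These 5 of 14 are close to the 35.5% of all genes called over this span, so the count is no result about this list. Pdgfb, the ligand of Pdgfrb, rose from 7.48 ± 2.28 to 21.5 ± 1.95 CPM (log2 fold change 1.52 ± 0.22, adjusted p = 1.3e-06), and Pdgfd, another ligand of this receptor, from 4.28 ± 0.82 to 12.6 ± 2.73 (1.56 ± 0.27, 1.7e-05). Of the Notch ligands and targets in this list, Hey2 was called higher from P1 to P60, as Notch3 was, and Jag1, Dll4, Hey1, Heyl, Hes1 and Nrarp were not called. Hey2 was near the floor at P1, with 1 to 22 reads per library, and had 40 to 64 reads at P60. Jag1 was at 93.8 ± 41.9 CPM at E13, 43.3 ± 5.76 at P1 and 19.0 ± 2.38 at P5, and it was called lower from P1 to P5 (-1.19 ± 0.25, 0.0012). Heyl, a Notch target of mural cells, fell from 60.2 ± 19.1 CPM at E13 to 12.2 ± 1.94 at E17 (-2.30 ± 0.23, 2.7e-09), the step at which Notch3 fell, and was at 11.1 ± 2.37 CPM at P60. Its log2 difference from P1 to P60 was 0.59 ± 0.23 (0.031), under 2-fold, where Notch3 rose by 1.37. S1pr3, a sphingosine 1-phosphate receptor of smooth muscle and other cells, peaked at E17 (606 ± 43.6 CPM) and was lowest at P14 (95.3 ± 7.86).

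Markers of other cells of the nerve also moved over the same span. Of 10 endothelial genes, 7 rose from P1 to P60 and none fell (median log2 difference 1.84), against 20.3% and 15.2% of all genes, and their summed level had medians of 238 CPM at P1 and 840 at P60. All 3 perineurial genes (Slc2a1, Itgb4 and Cldn1) rose, with summed medians of 200 and 1270 CPM, although the perineurium was stripped at both stages. Of 7 fibroblast and epineurial genes, 5 rose and 1 fell. The part of these cells in the rise of Pdgfrb, Acta2 and Tagln was not tested. Vessels of the outer sheaths carry smooth muscle, so how much sheath was left at each stage cannot be told apart from change in the endoneurium.

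**Figure D5:**
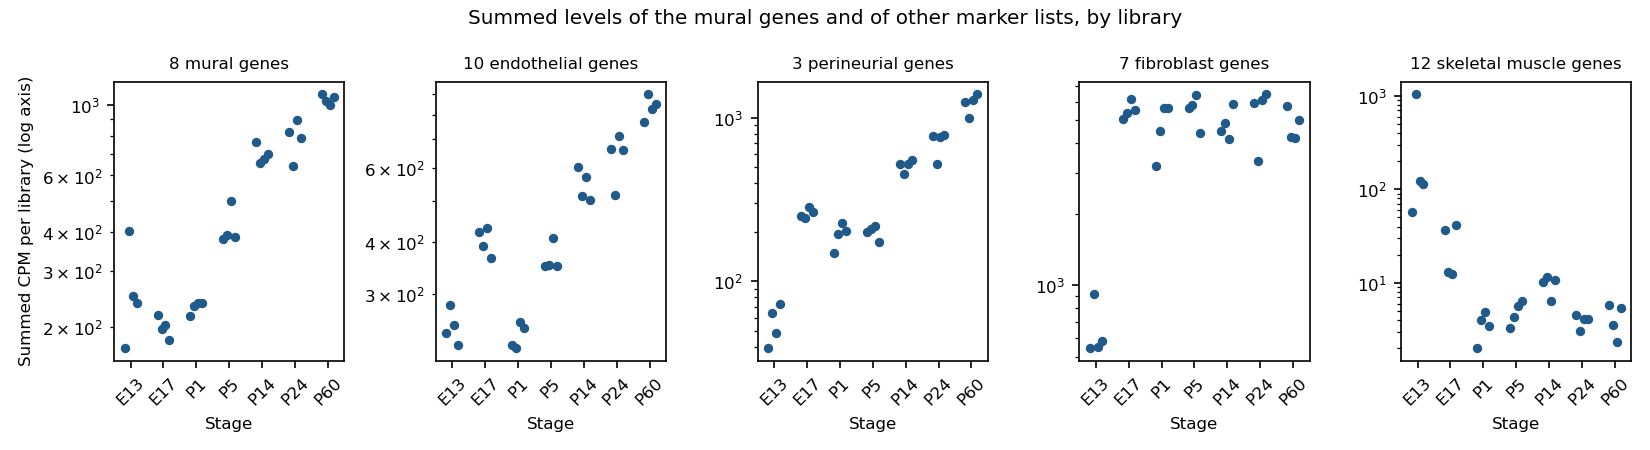
Summed CPM in each library (points, vertical log axis with a range of its own in each panel) of the 8 mural genes and of endothelial, perineurial, fibroblast and skeletal muscle genes at the 7 stages. The skeletal muscle sum reaches 1040 CPM in E13 replicate 2 and is at most 11.5 CPM after birth, and the medians of the mural, endothelial and perineurial sums are highest at P60.

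P5 replicate 3 and P24 replicate 2 stood apart within their stages for several of the 8 genes at once. P5 replicate 3 was the highest P5 library for Acta2, Tagln, Myh11 and Notch3, with an endothelial sum of 407 CPM against 349 to 351 CPM in the others. Its fibroblast sum (6390 CPM against 4440 to 5790) and perineurial sum (218 against 173 to 210) were the highest as well, while its Pdgfrb and Rgs5 levels were within their range. P24 replicate 2 was the lowest P24 library for Acta2, Tagln, Myh11, Notch3, Abcc9, Pdgfrb and Des, and its endothelial sum (516 CPM against 660 to 714), fibroblast sum (3370 against 5950 to 6460) and perineurial sum (518 against 760 to 785) were low as well. Without P24 replicate 2, the P14 to P24 difference of Acta2 was 0.45 ± 0.47 (adjusted p = 0.76) in place of 0.22 ± 0.46 (0.92).

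Likeness to other genes was measured as the correlation of log2 CPM over the 24 libraries from E17 on, among the 11006 genes that averaged 5 CPM or more. These libraries share the stages, so genes that change with age correlate for that reason alone, and the values are a description. Acta2 and Myh11 were each other's closest match (Pearson r = 0.980, Spearman rho = 0.970), followed, for Myh11, by Ace (r = 0.965, rho = 0.936) and Tagln (0.963, 0.951). Acta2 was next most like Lpl (r = 0.965) and Col23a1 (0.960). Pdgfrb was most like Fcgrt (r = 0.990), Fam219a (0.985) and Plekhf1 (0.985), and Rgs5 like Prrg3 (0.974), Sema5a (0.973) and Odc1 (0.973). Notch3 was most like Adam15 (0.952), Tie1 (0.943), a receptor of endothelial cells, and Sema3f (0.941). Tagln was most like Sptbn5 (0.993), Kif13b (0.993) and Cntf (0.991), and Des like Sema7a (0.970), Tapbpl (0.968) and Mast2 (0.968). From P14 to P60 Tagln went from 114 to 396 CPM and Cntf from 345 to 1860, while Myh11 went from 42.8 to 65.1 and Acta2 from 55.5 to 93.6. Which cells of the nerve made the Tagln RNA was not tested. Abcc9 had the weakest closest match, Rflnb (0.867), followed by Adamts15 (0.847) and Igsf10 (0.840).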

How the data were processed

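Bulk poly-A RNA was sequenced from mouse peripheral nerve at 7 stages with 4 libraries each. The authors made stranded TruSeq libraries, sequenced single-end reads, aligned them with STAR (2.6.1c in the submitters' processing notes, which name GRCm38.p5) and assigned them to genes with featureCounts. The deposited values are these raw read counts, not normalized. Strand and multi-mapping settings of the counting are not given in the sources used here.

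Symbols, coordinates and exon lengths came from GENCODE (GRCm38), which matched 41519 of 41605 identifiers (99.8%). Genes were filtered with filterByExpr, scaled by TMM and tested with edgeR 4.0.16 (R 4.3.3, glmQLFit with robust = TRUE, glmQLFTest) on all 28 libraries, with Benjamini-Hochberg adjustment over 17700 genes. Ratios used exact two-sided permutation tests (4 against 4) with a pseudocount of 0.5 CPM. Alternatives included limma 3.58.1 (voom), DESeq2 1.42.0, other scalings and filters, removal of a GC trend and leaving out each library. The edgeR step was tested on simulated data. Libraries of a stage come from separate animals or pools, and of 42 pairs within stages 0 were identical.

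The 8 genes, the gene lists and the tests were chosen with earlier results of these data known. Named genes are the 8 genes, their 3 closest matches, the 3 most abundant genes per length of each list, the regulators and signals, and the called genes of small counts. Kcnj8, the partner of Abcc9, was named outside this rule, after its values were seen.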

Additional observations from a re-analysis of the deposited data

Results flagged for a closer look

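Within each group of 4 libraries, the highest and lowest value of each of the 8 genes was compared with the others by the gap to its nearest neighbour, divided by the range of the group. In 3 of 56 groups this ratio was above the critical value of Dixon's test, and chance alone gives about 1 in 20 groups. The Acta2 level of P5 replicate 3 was 74.6 CPM, against 18 to 23.7 CPM in the other P5 libraries (ratio 0.899). The Tagln level of the same library was 56.1 CPM, against 28.1 to 30 CPM (0.935). The Tagln level of E13 replicate 1 was 7.35 CPM, against 17.9 to 19.5 CPM in the other E13 libraries (0.873), and this is the library with the GC slope of -0.93.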

How the results depend on the processing

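The counts of called genes kept within 1.5 times their value in all but a few settings. From P5 to P14 the count went from 2 to 4 with limma-voom (Acta2 and Des added), from E17 to P1 it went from 1 to 2 when only the compared stages were fitted (Myh11 added), and with no fold minimum the counts were 2 from E17 to P1, 4 from P5 to P14 and 1 from P24 to P60. Leaving out 1 library at a time gave 1 to 2 genes from E17 to P1 (2 without E17 replicate 1) and 0 to 1 from P14 to P24. Calls of single genes near a threshold also changed: Pdgfrb from P1 to P60 was 0.98 with limma-voom and 0.99 with no filter, and Myh11 from P5 to P14 had an adjusted p of 0.088 when only those stages were fitted.

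Changes of sign concerned differences that were not called. Scaling by totals alone gave -0.05 for Pdgfrb from E13 to E17 and 0.02 for Abcc9 from P24 to P60. With no filter Pdgfrb from P14 to P24 was 0, and Des from E17 to P1 was 0.09 with limma-voom and 0.1 without the 3 libraries with a GC trend (chosen after the data were seen). Removing the GC trend gave -0.09 for Rgs5 from E13 to E17. Without 1 library at a time, ranges that crossed 0 were -0.28 to 0.09 for Des from E17 to P1, -0.03 to 0.31 for Des, -0.25 to 0.03 for Abcc9 and -0.05 to 0.20 for Notch3 from P24 to P60, and, from P14 to P24, 0.00 to 0.45 for Acta2 and -0.02 to 0.06 for Pdgfrb. The causes were not tested.

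For ratios to Pecam1 from P1 to P60, Cdh5 in its place turned Pdgfrb to 0.49 and took Rgs5 (1.02) and Notch3 (0.79) past the threshold, and a pseudocount of 2 gave 0.54 for Des (exact permutation p = 0.057). With 1 library left out, 0.057 is the smallest p, so the called ratios could not pass: the ranges were -1.89 to -1.68 for Abcc9, 2.69 to 2.94 for Acta2, 4.10 to 4.20 for Tagln, 3.01 to 3.12 for Myh11, 0.90 to 1.21 for Des and -0.03 to 0.24 for Notch3. The ratio of Acta2 to Rgs5 ranged from -0.01 to 0.40 for E17 to P1 and from -0.04 to 0.63 for P5 to P14.

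With totals alone, the median of all genes moved to -0.33 from E13 to E17, -0.11 from E17 to P1, -0.19 from P1 to P5, -0.17 from P5 to P14 and -0.22 from P1 to P60. The share of called genes that were higher then went from 40.1% to 28.7%, from 53.8% to 43%, from 69.4% to 44.7%, from 59.1% to 46.2% and from 57.2% to 47.5%, but Tagln, Myh11 and Acta2 kept their calls from P1 to P5 and from P1 to P60. Over 84 pairs of same-numbered libraries the correlation of deviations had a median of 0.08 and ranged from -0.20 to 0.57, and over 252 differently numbered pairs it had a median of -0.04 and ranged from -0.47 to 0.26. Some same-numbered pairs thus deviated together, but not every pair was over 0.1, so the numbers were not taken to pair the samples. With replicate number as a block, Des from P5 to P14 passed (1.30, adjusted p = 0.047), which made 3 calls there, and no other call of the 8 genes changed. At under 3 CPM, as for Myh11 and Des at E17, depth limits what can be told.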
